A study of Caenorhabditis elegans with 6 samples.

Results

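The 10 genes described here encode proteins of the Caenorhabditis elegans eggshell, of the surface of the oocyte, and the receptor through which oocytes take up yolk. They are cbd-1, cpg-1, cpg-2, perm-2, perm-4, egg-1, egg-2, egg-3, chs-1 and rme-2. Members were found by the sequence name that the arrays give for each probe, and they are 10 of 18121 genes with a probe. Each was read by 1 probe, and each of the 10 probes passed the filter on dim signals and was tested.

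Young adults of the wild-type Bristol strain N2 were compared with young adults in which mir-243, a microRNA gene, carries the deletion n4759. Total RNA of whole worms was reverse-transcribed with random primers, and mutant and wild-type cDNA were hybridised together to two-colour Agilent whole-genome arrays. There were 3 biological replicates, each measured on 2 arrays with Cy3 and Cy5 exchanged. The arrays were run to look for direct and indirect effects of losing miR-243 on other transcripts. The microRNA itself was not analysed here, so the genotype of each channel rests on the labels. No other allele or treatment is named for either group. Because whole worms were used, fewer oocytes per worm and less of an mRNA per oocyte cannot be told apart. Both groups are described as young adults, and whether they were of the same age was not tested. A difference in age between the groups cannot be told apart from one of genotype in this design.

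The C. elegans eggshell is assembled within minutes of fertilization, in layers from outside to inside. A vitelline layer covers a layer of chitin, which covers a layer of chondroitin proteoglycans, and a lipid-rich permeability barrier forms beneath them. The mRNAs for these proteins are made in the germ line and are stored in growing oocytes, which at the same time take up yolk that the adult intestine secretes. Proteins at the oocyte surface bind the sperm and couple its entry to assembly of the shell.

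All values are ratios of mutant over wild type on the log2 scale, in which -1 is a 2-fold lower level. The 2 dye orientations of a replicate held the same RNA and were averaged, so n was 3, and errors are SDs between replicates. Normalised intensities are in scanner units after background correction, with 50 units added to each signal, and can be compared between genotypes for a probe but not between probes. They were also set to a common distribution of average intensity over the arrays (Aquantile normalisation). That step can narrow the spread of intensities between replicates, and it does not enter the ratios. A probe was called when its Benjamini-Hochberg adjusted p from limma was under 0.05 and its fold was at least 2. Median spot signals were 237 to 318 in Cy3 and 370 to 647 in Cy5. Of 16272 tested probes, 1480 were called higher and 1167 lower, and the median of all of them was -0.01. Replicates 1 and 2 were hybridised on 1 slide and replicate 3 on another, and each array carried both genotypes.

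The eggshell and oocyte surface genes were lower in mir-243 worms without exception. All 10 were called lower, beside 7.17% of all tested probes, and none was called higher, beside 9.1%. Of all tested probes, 41.3% were lower with an adjusted p under 0.05 at any fold. The decreases had folds from 2.88 for egg-1 to 6.59 for perm-2. The median log2 ratio of the 10 was -1.77, a 3.41-fold lower level, and the medians within replicates 1, 2 and 3 were -1.80, -1.74 and -1.84. Each gene was at least 2-fold lower in each replicate, which holds for 5.72% of tested probes, and on each of the 6 arrays, which holds for 4.03%. In each gene the highest mutant replicate lay below the lowest wild-type replicate, as it did for 34% of tested probes. The narrowest such gap was that of egg-1, with a 2.14-fold difference between the lowest wild-type and the highest mutant replicate. Both genotypes gave signals well above background for every one of these probes on all 6 arrays, and none had a saturated spot.

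**Figure D1:**
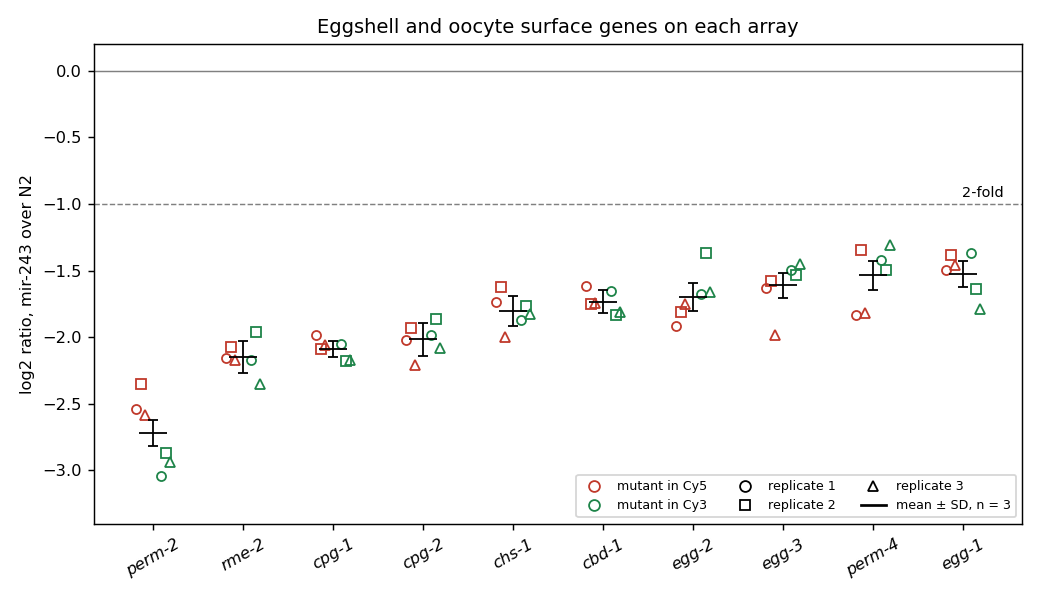
Log2 ratio of mir-243 over N2 for each of the 10 genes on each of the 6 arrays, in red with the mutant in Cy5 and in green with the mutant in Cy3, with the symbol giving the replicate and black bars giving the mean ± SD of 3 replicates. All 60 values lie below the dashed line at 2-fold, between -3.04 and -1.31, and the red and green points are apart for perm-2 and, by less, for egg-2 and egg-3.

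The outermost layer was represented by cbd-1, perm-2 and perm-4. Their products are secreted proteins of the vitelline layer that depend on each other for assembly. The strongest decrease among the 10 genes was that of perm-2. Its normalised intensity was 95238, 98068 and 98984 in N2 replicates 1 to 3, and 13764, 16040 and 14604 in the mutant. The mutant values were thus all far below the wild-type ones, and the replicates of each genotype lay close together. The replicate ratios were -2.79, -2.61 and -2.76, with a mean of -2.72 ± 0.0956 and an adjusted p of 1.21e-14 (limma). Only 25 of the tested probes, 0.154%, had a ratio as low or lower. The neighbouring gene perm-4 had intensities of 6140, 6132 and 7094 in N2 and 1986, 2294 and 2403 in the mutant. The genotypes were again apart, by a smaller margin, with ratios of -1.63, -1.42 and -1.56 and a mean of -1.54 ± 0.107 (adjusted p 3.54e-12, limma).

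For cbd-1, which encodes a protein with many chitin-binding domains, the wild-type intensities were 14988, 15640 and 19021 and the mutant ones 4825, 4508 and 5557. Replicate 3 was the brightest in both genotypes. The ratio of -1.73 ± 0.0869, from -1.64, -1.79 and -1.78, was a 3.33-fold decrease (adjusted p 6.64e-13, limma). In the gene order of the reference table, perm-2 and perm-4 lie next to each other, and the pair did not have the same ratio. The ratio of perm-2 minus that of perm-4 was -1.16, -1.19 and -1.20 in the 3 replicates, with a mean of -1.19 ± 0.0197 and the same sign on all 6 arrays. The exact two-sided sign-flip permutation test gave a p of 0.25 for this difference and for the ratio of each of the 10 genes, the smallest p that 3 replicates allow.

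The chitin layer is made by the chitin synthase CHS-1, an enzyme of the oocyte plasma membrane. Its gene chs-1 had intensities of 15645, 12485 and 13498 in N2 and of 4481, 3860 and 3583 in mir-243 worms. The lowest wild-type value was 2.79 times the highest mutant value. Replicate ratios of -1.80, -1.69 and -1.91 gave a mean of -1.80 ± 0.110, a 3.49-fold decrease (adjusted p 7.70e-13, limma). The second chitin synthase gene, chs-2, which acts in the pharynx, went the other way without reaching the 2-fold limit. Its ratio was 1.00 ± 0.150, with its dim wild-type signal well above background on 5 of 6 arrays, and over the alternatives it ran from 0.72 to 2.09. The ratio of chs-1 minus that of chs-2 was -2.80 ± 0.239, with the same sign on 6 of 6 arrays.

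Synthesis of the chitin precursor UDP-N-acetylglucosamine was covered by a further 5 genes. Of the 6 genes of this list, chs-2 included, 3 were called lower and none higher, and the list's median was -0.77. The genes called were gna-2, an N-acetyltransferase for glucosamine 6-phosphate that is needed for the eggshell, gfat-2, an aminotransferase that makes glucosamine 6-phosphate, and C36A4.4, which encodes a pyrophosphorylase. Their ratios were -1.80 ± 0.0460, -1.55 ± 0.0578 and -1.15 ± 0.0510. The ratio of gna-2 was thus at the level of the 10 genes, while gna-1, a second acetyltransferase gene, had 0.75 ± 0.0240. The difference between both was -2.54 ± 0.0413 and had the same sign on all 6 arrays.

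The inner proteoglycan layer is built from CPG-1 and CPG-2, which carry chondroitin chains and also bind chitin. For cpg-1 the wild-type intensities were 58033, 71027 and 66742 and the mutant ones 14335, 16191 and 15419. Both genotypes were lowest in replicate 1, and the ratio varied little, with -2.02, -2.13 and -2.11 and the smallest SD of the 10 genes. The mean was -2.09 ± 0.0621, a 4.25-fold decrease (adjusted p 7.07e-14, limma). For cpg-2 the intensities were 36894, 33324 and 38568 in N2 and 9206, 8945 and 8714 in the mutant. The highest wild-type and the lowest mutant value came from the same replicate, and cpg-2 had the largest SD of the 10, with -2.02 ± 0.125 from -2.003, -1.90 and -2.15 (adjusted p 3.63e-13, limma). The 2 genes differed by -0.07 ± 0.143, with a change of sign between replicates and between arrays.

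Among other chondroitin proteoglycans and enzymes of chondroitin synthesis, 2 of 16 tested probes were called lower and 1 higher, with a median of -0.54. The proteoglycan genes cpg-3 and cpg-4 had ratios of -2.48 ± 0.172 and -1.27 ± 0.114, whereas cpg-7 had 1.85 ± 0.0546 and was called higher. The numbered cpg genes therefore ran from a 5.59-fold lower to a 3.60-fold higher level. The sqv genes and mig-22, which encode enzymes and transporters for making chondroitin chains and are also used in the vulva and in other epithelia, were not called. All their probes were nevertheless lower with an adjusted p under 0.05 (limma), as were 41.3% of all tested probes. Their ratios ran from -0.78 ± 0.0823 for sqv-3 to -0.18 ± 0.0622 for a probe of mig-22. With median centring in place of loess, 5 probes of this list were called lower. The genes cpg-5 and cpg-6 were not analysed here.

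**Figure D2:**
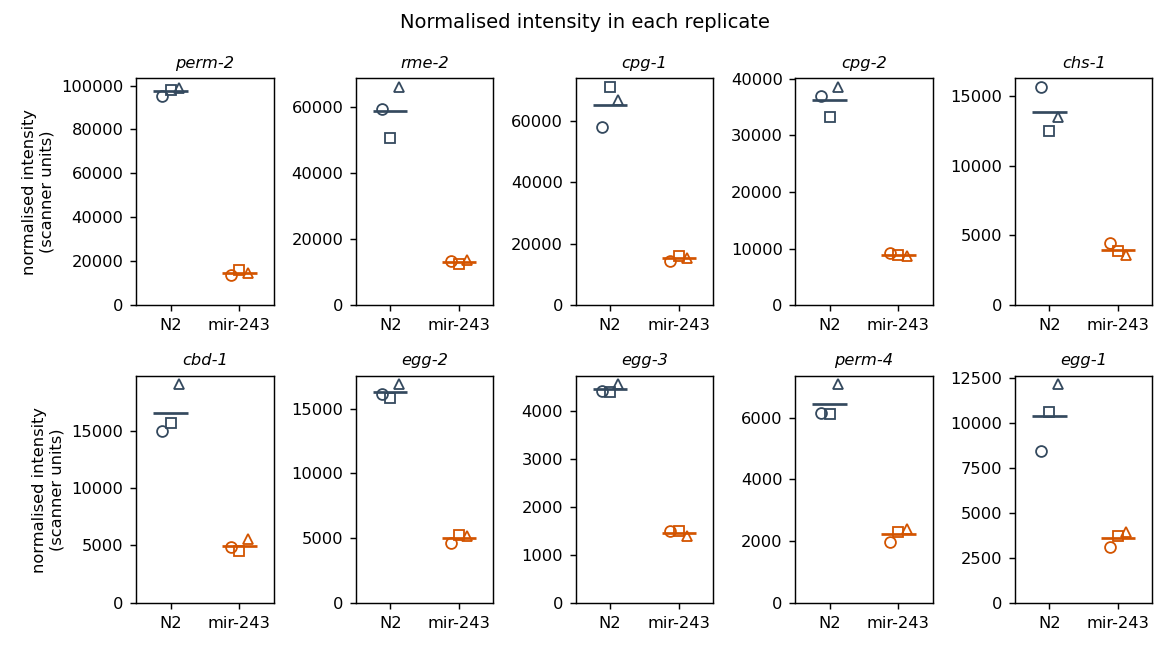
Normalised intensity (scanner units, linear axes from 0 with a scale for each gene) of the 10 genes in N2 and mir-243 worms. Symbols are replicates 1 (circle), 2 (square) and 3 (triangle), lines are means, and no mutant replicate reaches a wild-type one for any gene.

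At the oocyte surface, EGG-1 and EGG-2 are related membrane proteins with LDL-receptor repeats that fertilization requires. The probe of egg-1 had intensities of 8431, 10596 and 12137 in N2 and 3124, 3712 and 3934 in mir-243 worms. This gene had the widest relative spread of wild-type levels among the surface genes named egg and the smallest decrease of the 10, -1.52 ± 0.0968 from -1.43, -1.51 and -1.63 (adjusted p 3.06e-12, limma). For egg-2 the intensities were 16117, 15820 and 16901 against 4641, 5249 and 5178. The wild-type replicates of egg-2 lay close together, and the ratio was -1.70 ± 0.102 from -1.80, -1.59 and -1.71 (adjusted p 1.18e-12, limma). The ratio of egg-1 exceeded that of egg-2 by 0.17 ± 0.164, on 4 of 6 arrays. Cross-hybridisation between these paralogs was not tested, because probe sequences were not used.

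EGG-3 is a protein with a phosphatase-like domain that lies beneath the oocyte membrane and holds the kinase MBK-2 and CHS-1 at the cortex until the egg is activated. The intensities of egg-3 were 4406, 4405 and 4567 in N2 and 1490, 1501 and 1389 in the mutant, so that each genotype formed a narrow cluster. The ratio was -1.61 ± 0.0917 from -1.56, -1.55 and -1.72, a 3.06-fold decrease (adjusted p 1.53e-12, limma). Its partners in egg activation were tested with 5 probes, of which 2 were called lower and none higher. The called probes are both assigned to egg-5, a further phosphatase-like gene, with -1.34 ± 0.0288 and -1.16 ± 0.0895. Cross-hybridisation of these probes with egg-4 was not tested. The probes of mbk-2 gave -0.24 ± 0.0903 and -0.18 ± 0.0362, below the 2-fold limit. The sperm-supplied factor spe-11 had -0.00 ± 0.0204 (adjusted p 0.951, limma), and egg-4 was not analysed here.

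RME-2 is the LDL-receptor family protein by which oocytes internalise yolk lipoproteins. The intensities of rme-2 were 59537, 50628 and 66013 in N2 and 13265, 12505 and 13766 in mir-243 worms. Replicate 2 was the dimmest in both genotypes, and the groups were apart by 3.68-fold at the least. The ratio of -2.15 ± 0.123, from -2.17, -2.02 and -2.26, was a 4.43-fold decrease (adjusted p 1.84e-13, limma), and 104 tested probes, 0.639%, were as low or lower.

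The ligands of RME-2 come from the vit genes, which encode the yolk proteins and are transcribed in the adult intestine. All 5 tested vit probes were called lower, with ratios of -4.13 ± 0.133 for vit-1, -3.43 ± 0.0951 for vit-5, -3.17 ± 0.149 for vit-4, -2.22 ± 0.0325 for vit-2 and -1.71 ± 0.392 for vit-6, whose mutant signal was well above background on 4 of 6 arrays. The probe of vit-3 and a second probe of vit-6 lacked replicate values and were not tested. In replicate 3 they gave -4.03 and -2.85. The median of the 5 tested probes was -3.17, below the ratio of rme-2, while rme-2 and vit-2 differed by only 0.07 ± 0.0955. Of 12 probes for endocytosis and recycling genes, none was called in either direction, and their median was 0.12. These included the clathrin heavy chain and further rme genes, which many tissues use. Of the other LDL-receptor family genes, lrp-1, a megalin-related gene of the epidermis, was called higher, with 1.80 ± 0.0210, and lrp-2 had 0.18 ± 0.0218. The ratio of rme-2 minus that of lrp-1 was -3.95 ± 0.103.

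**Figure D3:**
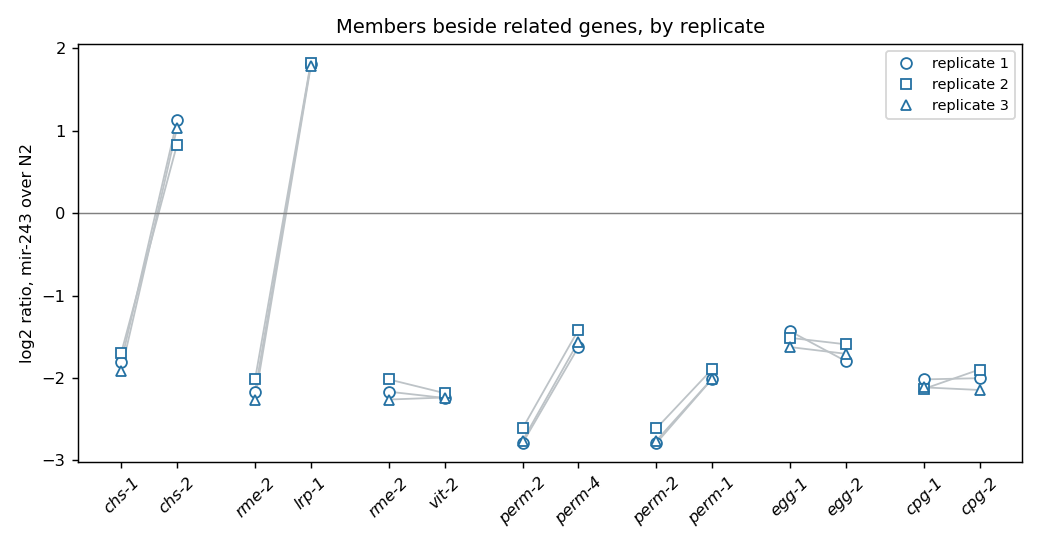
Log2 ratio of mir-243 over N2 in each of 3 replicates for 7 pairs of genes, with a grey line joining the values of a replicate. The lines for chs-1 and chs-2 and for rme-2 and lrp-1 cross 0, those from perm-2 to perm-4 and to perm-1 are nearly parallel, and the remaining 3 pairs overlap.

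The lowest ratio was that of perm-2. It was followed by rme-2, cpg-1, then cpg-2, chs-1, cbd-1, egg-2, egg-3, perm-4 and egg-1. Of the 9 pairs of neighbours in this order, 8 overlapped in their replicate ratios. The exception was the pair of perm-2 and rme-2, with differences of -0.62, -0.59 and -0.50 in the 3 replicates and a mean of -0.57 ± 0.0655. Within an overlapping pair, cpg-2 was lower than chs-1 on all 6 arrays, with differences of -0.20, -0.20 and -0.23 in the replicates. The other 7 pairs changed sign between replicates, so their order was not resolved. The 4 genes that fell at least 4-fold were perm-2, rme-2 and both cpg genes, and 0.817% of all tested probes fell as far.

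Replicate 2 gave the highest ratio for 7 of the 10 genes and replicate 3 the lowest for 5. These shifts were small beside the decreases. The SDs ran from 0.0621 to 0.125, and all but that of cpg-1 exceeded the median SD of all tested probes, 0.0684. For replicates 1 and 2, on the first slide, the median of the 10 genes was -1.73, and for replicate 3, on the second, it was -1.84. With the slide as a block it was -1.79, and all 10 remained called lower.

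The dye orientation had its largest effect on perm-2. On the arrays with the mutant in Cy5 its ratios were -2.54, -2.35 and -2.58, and on those with the mutant in Cy3 they were -3.04, -2.87 and -2.94, so the orientations did not overlap. They did not overlap for egg-2 and egg-3 either, which makes 3 of the 10 genes, beside 34.5% of tested probes. For perm-2 the difference of 0.46 had an adjusted p of 0.00341 in the limma fit with a dye term, and perm-2 was the only one of the 10 genes past 0.05, beside 16.5% of tested probes. There were 3 genes, perm-2, egg-2 and perm-4, with a dye difference of at least 0.25 in size, beside 18.2% of tested probes. For egg-2 and perm-4 it ran the other way, with -0.26 each (adjusted p 0.0617 and 0.123, limma), and for egg-3 it was -0.24 (adjusted p 0.103). Each of the 10 genes remained called lower on the arrays of either orientation alone.

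**Figure D4:**
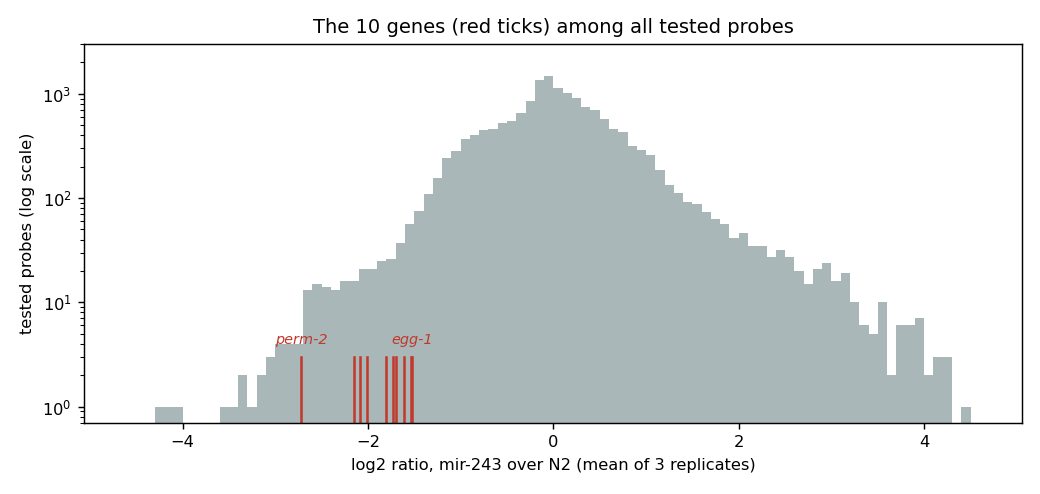
Distribution of the log2 ratio of mir-243 over N2 over the 16272 tested probes (bars 0.1 wide, logarithmic count axis), with the 10 genes as red ticks. The ticks lie between -2.72 (perm-2) and -1.52 (egg-1) in the lower tail, where 283 probes are as low as egg-1 or lower.

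Genes for the lipid-rich permeability barrier and for the cortical granules, the vesicles that release CPG proteins from the fertilized egg, were split between lower, higher and uncalled levels. Of 7 further permeability genes, 2 were called lower and none higher, with a median of -0.21. They were perm-1, with -1.97 ± 0.0672, and dgtr-1, an acyltransferase gene for barrier lipids, with -1.21 ± 0.0777. The fatty acid synthase gene fasn-1 had 1.00 ± 0.179, just below 2-fold, and perm-3 had -0.43 ± 0.127. The ratio of perm-2 minus that of perm-1 was -0.75 ± 0.0304, with the same sign on all 6 arrays. Of 6 cortical granule genes, 1 was called in each direction. The caveolin gene cav-1, whose product lines these granules, fell 6.08-fold, to -2.61 ± 0.226, and rab-6.2 rose, with 1.34 ± 0.0631. The syntaxin gene syx-4 had -0.99 ± 0.0759 and rab-11.1 had 0.89 ± 0.0228.

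The chromosomal neighbours of the 10 genes had ratios on both sides of 0. Of 13 tested neighbours that are not members, 1 was called lower and 1 higher, with a median of 0.08. The first was T25G3.1, beside chs-1, with -1.05 ± 0.153, and the second was ins-17, an insulin-like gene beside cpg-1, with 1.02 ± 0.0568. Both were named after their values had been seen.

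The closest match to the 10 genes among the lists examined was that of RNA-binding proteins stored in oocytes and embryos, of which 11 of 12 tested probes were called lower. Their median was -1.68, and the median of the eggshell and surface genes minus theirs was -0.11, -0.12 and -0.10 in the 3 replicates. Examples were cey-2, a Y-box protein gene, with -2.04 ± 0.131, and pos-1, a zinc-finger gene for embryonic fates, with -1.99 ± 0.0959. The exception was gld-1, with -0.61 ± 0.0278, named after its value had been seen; its product is a repressor of mRNAs earlier in the germ line. General germ line genes (P granule, Notch and meiotic chromosome genes) were called lower in 5 of 10 cases, with a median of -0.98, and the lowest had a ratio of -1.14. The median of the 10 eggshell and surface genes minus the germ line median was -0.83, -0.76 and -0.84 in the 3 replicates, and each of the 10 had a lower ratio than any tested germ line probe.

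Other cell types of the gonad and its surroundings are also in whole-worm RNA. The sperm list, 23 tested probes for the major sperm proteins, had a median of -0.01 with none called. Its summed intensity was 483087 to 495689 in N2 and 462105 to 492583 in the mutant, ranges that overlap. Cross-hybridisation among the genes of this family was not tested, so the probes may not be separate measures. Of 8 probes for sperm genes that act at fertilization, the counterparts of the EGG proteins, none was called lower and 1, spe-41, was called higher, with 1.03 ± 0.130. Markers of the gonadal sheath and spermatheca were not called in any of 8 tested probes, with a median of 0.01 and summed intensities of 6832 to 7206 in N2 and 7199 to 7508 in the mutant. At any fold, 1 of these 8 was lower and 2 were higher with an adjusted p under 0.05 (limma). The sheath gene inx-8, an innexin, was not among the 8, because outlier marks left it a value for replicate 3 only, -1.75. That value came from intensities of 4299 in N2 and 1274 in the mutant, which are not in the sums above. With outlier spots kept inx-8 was called lower, with -1.72, as it was with the deposited ratios. Early embryo genes were not called in any of 5 tested probes, with a median of -0.14. Of these 5, 4 were lower and 1 was higher at any fold with an adjusted p under 0.05 (limma). Their summed intensity was 1060 to 1173 in N2 and 968 to 1034 in the mutant, ranges that do not overlap. A further 2 probes of the list, tbx-37 and pes-10, were not above background in either genotype, with mean N2 intensities of 83.1 and 78.9. The tested probes had mean N2 intensities from 105 for end-1 to 490 for end-3. A 2-fold decrease was therefore hardly within reach for the dimmest of them.

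Markers of other tissues moved as well. All 9 probes for furrow collagens and molting genes, which larvae express in each molt, were called higher, with a median of 3.82. Their summed intensity was 7303 to 8638 in N2 and 110951 to 128488 in the mutant. Of 6 adult cuticle genes 2 were tested, and the collagen gene col-49 was called higher, with 3.12 ± 0.121, while col-19 was called lower, with -1.26 ± 0.189. The other 4 lacked a replicate value, and with outlier spots kept 5 of the 6 were called higher. By the same measure of summed intensity the 10 genes summed to 315430 to 343524 in N2 and 71118 to 74805 in the mutant. Neuron probes had a median of 0.85 with 3 of 12 called higher, and with none called under median centring. Intestine probes had a median of 0.42 with 1 of 7 called in each direction, and the call of lower was lost under 4 alternatives. Muscle probes had a median of 0.21 with none of 5 called. The part of these shifts in the lower level of the 10 genes was not tested.

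**Figure D5:**
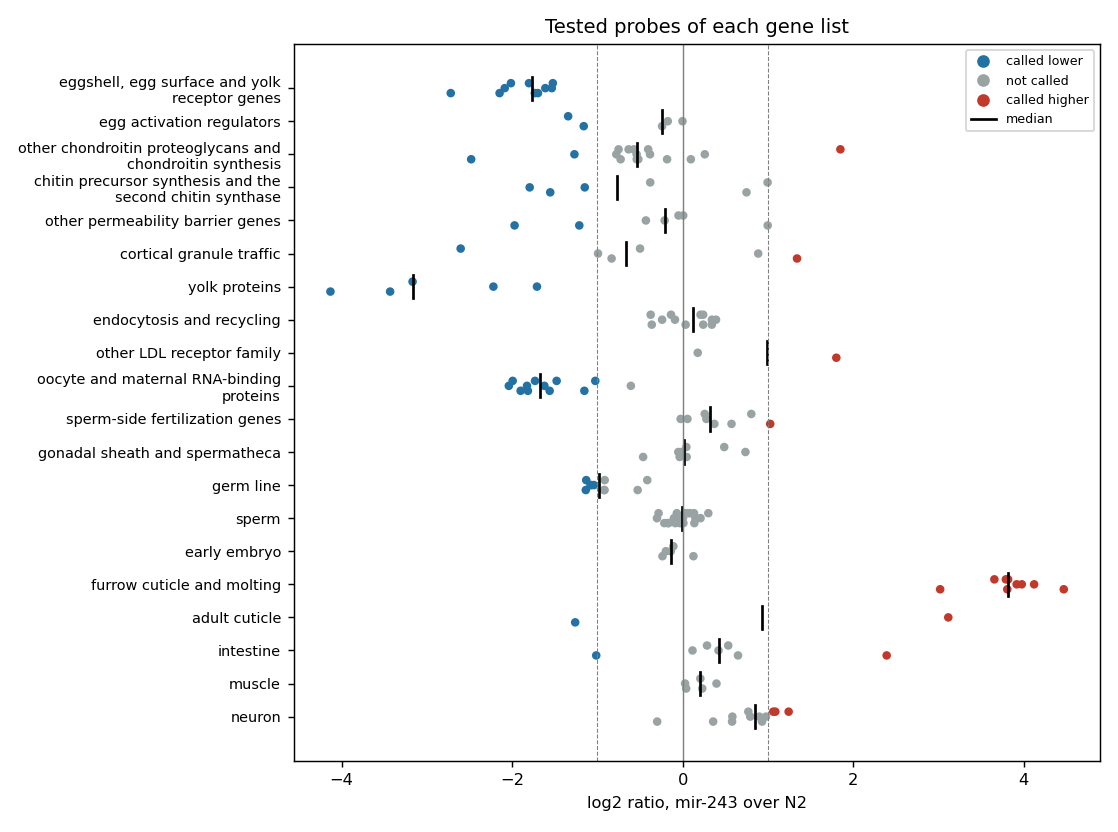
Log2 ratio of mir-243 over N2 for every tested probe of each gene list, coloured by call, with a black line at the median and dashed lines at 2-fold. The eggshell and surface genes (median -1.77), the yolk proteins (-3.17) and the oocyte RNA-binding proteins (-1.68) lie left of -1, the sperm list is centred on -0.01, and the furrow cuticle and molting genes are centred on 3.82.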

How the data were processed

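For every spot the deposited files give the median pixel intensity of the spot and of the area around it, per channel and not normalised. The authors scanned the arrays and, per the file headers, read them with Agilent Feature Extraction 10.5.1.1 (the labels name version 8.5.1.1). Other deposited columns were processed intensity values, a log10 ratio of Cy5 over Cy3, quality marks of 0 or 1 for each spot, and the authors' log2 ratio for each probe. Here limma 3.58.1, run in R 4.3.3, corrected the background by normexp (offset 50), fitted on spots without outlier marks. Ratios were normalised by loess, outlier spots were set to missing, the spots of a probe were averaged, and ratios were turned to mutant over wild type. For the intensities only, Aquantile normalisation between arrays followed loess. The plan named the mean signal, in whose place the median was used. Probes well above background on at least 4 of 6 arrays in at least 1 genotype, with 3 replicate values, were fitted with lmFit and eBayes against 0. Benjamini-Hochberg adjustment ran over all of them. On simulated data with known changes the script was tested. Because the offset draws dim probes towards 0, folds are on the scale of signal plus 50. The members, the gene lists and the rule for named genes (all members, paralogs and partners, and up to 4 probes per list that lay farthest from 0) were chosen with earlier results of these data known. Of 20401 gene probes, 19054 were matched to RefSeq genes on assembly WBcel235, used for names and gene order only. The genome build of the probes is not given in the sources used here, so no positions are given. The number of arrays limits the precision.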

Additional observations from a re-analysis of the deposited data

Results flagged for a closer look

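Of 11 measures, the 10 genes and their median, each checked over the 6 arrays for a value far from the rest, 1 was picked out, and chance alone picks about 1 in 20. It was egg-3 in replicate 3, where the array that held the mutant in Cy5 gave a log2 ratio of -1.98. The other 5 arrays gave -1.63 to -1.45, and the gap to the nearest was 0.656 of the whole range, past the limit of Dixon's test for 6 values. Without replicate 3 egg-3 remained called lower.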

How the results depend on the processing

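Each of the 10 genes was called lower under every setting tried. Under 17 alternatives, of which the slide block was chosen after seeing the data, each of the 170 values kept its call, with log2 ratios from -2.95 to -1.41 and adjusted p values from limma of at most 1.55e-06. Some alternatives could not change a member's ratio. They were the other filters on dim probes, Aquantile normalisation between arrays, and the fit of 6 arrays with a dye term. Their ratios repeat the main ones and are no further evidence. Median centring instead of loess moved the median of the 10 to -2.02, the processed signals of the scanner to -1.86 and the authors' log2 ratios to -1.88. It ran from -1.81 to -1.73 when single replicates were left out. Over all probes, 4342 were called with the processed signals (2214 of them lower) and 4518 with the authors' ratios (2321 lower), against 2647 (1167 lower). Genes near the 2-fold limit depended on the setting. A call of higher was made for chs-2 under 7 of 16 alternatives and for fasn-1 under 8 of 17, and spe-41 lost its call under 7 of 17. Cortical granule probes called lower went from 1 to 2 or 3 under 7 alternatives, and germ line probes called lower from 5 to 8 with the processed signals. The causes were not tested. Each ratio sets the mutant against the wild type of its own replicate, so the main fit was paired and had no further replicate block. The alternative fit of 6 arrays with a dye term took the replicate as a random block. Signals of dim probes such as chs-2, and the number of replicates, limit what can be resolved.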
